A study of Mus musculus with 18 samples.

Results

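Transcripts of 9 genes of retinoid and alcohol metabolism were followed in dorsal skin of mice across tape stripping and winged bean feeding: Adh1, Adh6a, Adh7, Aldh1a1, Aldh3a1, Crabp2, Dhrs9, Stra6 and Cyp26b1. All probe sets that the platform annotation assigns to exactly one of these symbols were taken, which gave 9 probe sets for 8 genes among 45037 tested probe sets; Dhrs9 is not listed there and was not analysed here. A probe set whose values ranged by less than 0.01 over the 18 arrays carries no information. Stra6, held at 6.62 on every array, is such a probe set, so 8 probe sets of 7 genes are described. The genes were picked for their pathway and with values from these arrays in view, partly chosen on the NT to TS difference of Adh6a, which was among the largest falls, so their differences are given as descriptions with intervals, and the word passed only places a probe set within the fit across all probe sets.

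Every mouse was a 6-week-old male of the HR-1 strain, which is albino and hairless. The NT group (n = 6 arrays) had unstripped skin. In the TS group (n = 6) the dorsal skin of the left side was stripped with cellophane tape 3 times per week for 4 weeks, each session until transepidermal water loss reached 70 to 100 g/m2/h. The WB group (n = 6) was stripped in the same way and was given an oral dose of 200 mg/kg/day of winged bean extract, dissolved at 20 mg/ml in 0.3% carboxymethylcellulose, 5 times per week for 5 weeks, starting 1 week before stripping. The labels do not say whether NT and TS mice received the vehicle. The arrays are labelled as biological replicates, and whether each is a single animal is not given either.

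Retinol enters cells from the blood carrier RBP4 and is oxidised in steps, first to retinaldehyde by alcohol dehydrogenases and short-chain dehydrogenases, then to retinoic acid by retinaldehyde dehydrogenases. Retinoic acid is carried to nuclear receptors by binding proteins such as CRABP2 and is removed by CYP26 hydroxylases. In epidermis this pathway is known for its control of keratinocyte growth and differentiation, and the same dehydrogenase families also clear ethanol and reactive aldehydes.

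Values are log2 values as deposited, and ± gives the SD over 6 arrays. Array medians lay between 6.897 and 6.9496, and 73.5% of the tested probe sets that enter them are constant over the arrays. Markers of basal and differentiated keratinocytes, fixed as lists of 8 and 11 genes, averaged 10.75 and 11.01 in NT, above these medians. The array NT 5 stood apart by liver markers: its 15 varying liver markers averaged 14.37, against 6.69 to 6.83 on the other 17 arrays, and albumin (Alb) stood at 19.04 there. A measure of RNA state also set WB arrays apart. The 3' minus 5' difference of the beta-actin control probe sets was -0.51 ± 0.10 in NT, 0.16 ± 0.07 in TS and 5.69 ± 0.25 in WB (p = 0.00216 between any pair of groups in a two-sided exact permutation test, the smallest that 6 against 6 arrays can give, adjusted p = 0.00289 over 36 array measures). The same measure of Gapdh was -0.59 ± 0.11 in NT, -0.44 ± 0.11 in TS and 3.70 ± 0.36 in WB. Between TS and NT it differed by 0.15 (exact permutation p = 0.0476, adjusted p = 0.0536). Every difference between groups below therefore comes with a difference in the actin measure, which was smaller between TS and NT (0.66) than between WB and either group. Its part in those results was not tested.

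The genes Adh7, Adh1 and Adh6a lie next to each other in this order on chromosome 3 (GRCm38.p6, chr3:138198064-138232042, chr3:138277585-138290698 and chr3:138313286-138331134), followed by Adh6b, Adh4 and Adh5. Their promoters are shown because the differences of these neighbours between TS and NT are given side by side, and that of Cyp26b1 (minus strand of chromosome 6) because this gene rose. Each line holds the 250 bases before a RefSeq start site of GRCm38.p6, on the gene's own strand, at chr3:138217523-138217772, chr3:138277335-138277584, chr3:138313036-138313285 and chr6:84593811-84594060. Capitals mark matches, on either strand, to hexamers that nuclear receptors bind in pairs (AGGTCA or one of its variants AGTTCA or also GGGTCA or lastly GGTTCA), to the AP-1 motif TGANTCA and to the TATA box TATAAA.
Adh7: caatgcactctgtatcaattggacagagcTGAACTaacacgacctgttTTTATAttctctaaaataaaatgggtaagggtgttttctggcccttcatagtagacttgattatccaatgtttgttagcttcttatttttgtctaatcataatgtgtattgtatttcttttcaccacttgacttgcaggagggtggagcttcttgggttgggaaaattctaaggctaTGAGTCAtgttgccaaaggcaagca
Adh1: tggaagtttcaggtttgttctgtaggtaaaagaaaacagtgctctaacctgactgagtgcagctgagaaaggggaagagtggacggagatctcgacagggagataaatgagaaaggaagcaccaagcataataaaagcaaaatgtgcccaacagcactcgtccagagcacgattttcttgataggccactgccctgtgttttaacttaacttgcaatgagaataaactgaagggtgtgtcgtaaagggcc
Adh6a: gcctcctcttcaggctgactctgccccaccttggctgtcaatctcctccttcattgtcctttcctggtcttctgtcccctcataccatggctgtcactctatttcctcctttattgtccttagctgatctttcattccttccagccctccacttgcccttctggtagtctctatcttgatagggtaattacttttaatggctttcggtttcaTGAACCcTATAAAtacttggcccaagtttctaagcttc
Cyp26b1: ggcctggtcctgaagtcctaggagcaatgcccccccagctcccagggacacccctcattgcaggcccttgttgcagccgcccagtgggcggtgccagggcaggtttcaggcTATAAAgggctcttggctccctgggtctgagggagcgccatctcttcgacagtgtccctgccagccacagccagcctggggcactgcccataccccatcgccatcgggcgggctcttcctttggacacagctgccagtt

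A promoter was found for 7 of the 9 genes, but not for Crabp2 and Aldh3a1. Those of Dhrs9, Stra6 and Aldh1a1 were found and are not printed here. The Adh6a window has TATAAA from -31 to -26 and, just before it and without overlap, a GGTTCA hexamer on the opposite strand from -38 to -33. The Adh7 window has TGAGTCA from -25 to -19, AGTTCA on the opposite strand from -221 to -216 and TATAAA on the opposite strand from -202 to -197. The Cyp26b1 window has TATAAA from -139 to -134, and the Adh1 window holds none of these motifs. The start sites used for Adh7 and Cyp26b1 lie inside the listed spans of these genes (chr3:138198064-138232042 and chr6:84571414-84593908). Positions in these windows are counted from those inner start sites. Of 32851 promoter windows of the same length, 8.85% hold GGTTCA on either strand, 11.8% of windows hold AGTTCA, a share of 14% holds AGGTCA, and 11.6% hold GGGTCA, while the AP-1 motif was found in 6.75% and the TATA box in 12.4%. No window of the 4 held a direct repeat of NGNTCA spaced by 2 or 5 bases, which 0.886% and 0.776% of all windows did. A match is a description of the letters and not a binding site.

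Stripped skin had far less Adh6a transcript and more Crabp2 and Cyp26b1 transcript than unstripped skin, while the groups overlapped for Adh1 and Adh7. In TS against NT, 2 of the 9 probe sets passed upward and 1 downward, where 10.1% of all tested probe sets and 38.1% of those that vary were called, 18.7% of the varying ones upward and 19.4% downward. A probe set passed at an adjusted p under 0.05 and a difference of at least 0.01. The groups did not overlap for 3 of the 8 varying probe sets, against 24.9% of all varying ones. Since the genes were picked with such results known, nothing is read from these shares.

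**Figure D1:**
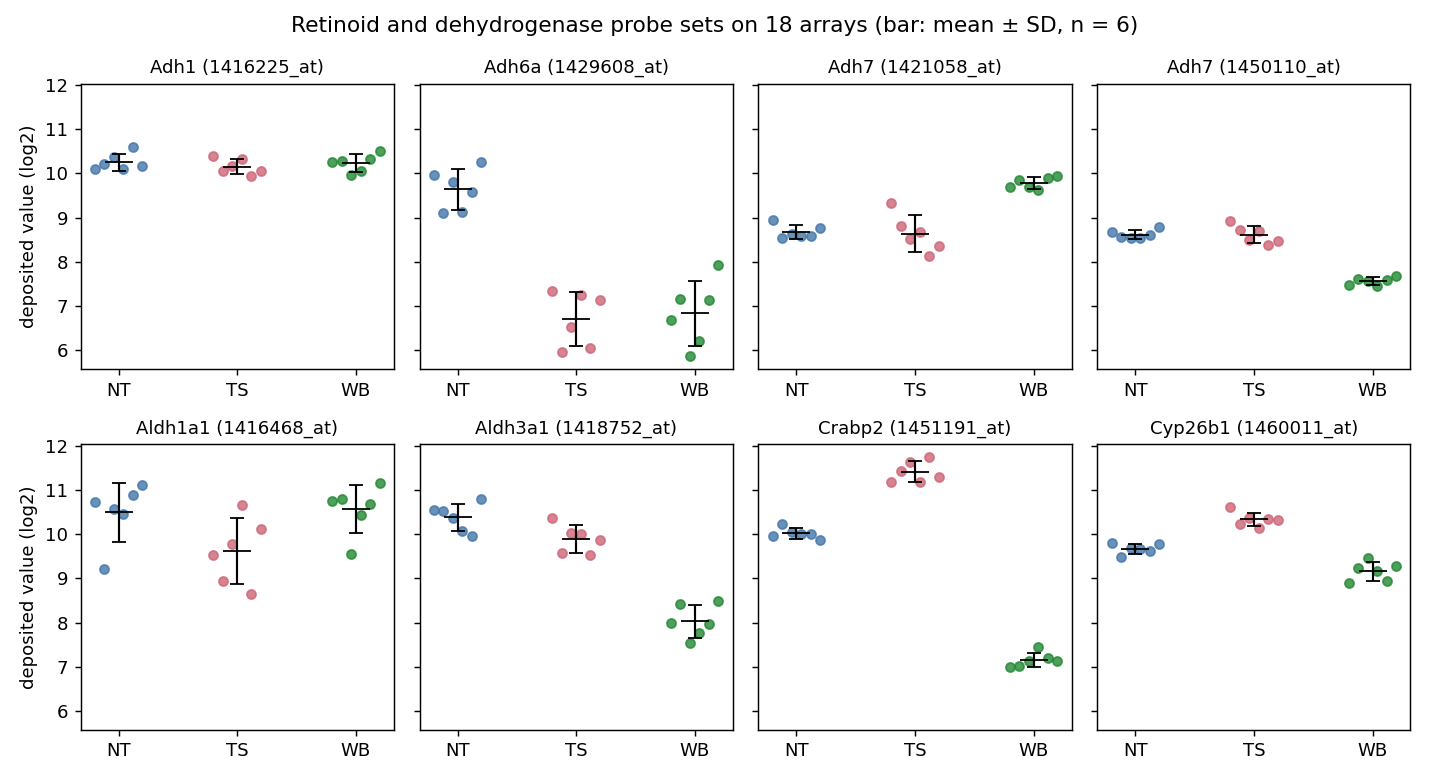
Deposited log2 value (y axis) of the 8 varying probe sets on each array, by group (x axis); each point is an array and the bar is the mean ± SD of 6 arrays. Adh6a lay between 9.10 and 10.25 in NT and at 7.33 or below in TS, and Crabp2 lay highest in TS and lowest in WB.

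Crabp2 encodes the binding protein that carries retinoic acid to its nuclear receptor. Its probe set ran from 9.87 (median 9.9996) to 10.23 on NT arrays and from 11.17 (median 11.37) to 11.73 on TS arrays. All TS arrays thus lay above all NT arrays. The difference was 1.39 (SE 0.10, 95% interval 1.17 to 1.61), or 2.62-fold higher in TS (n = 6 per group). Cyp26b1, the hydroxylase that starts the removal of retinoic acid, ran from 9.49 (median 9.67) to 9.80 in NT and from 10.14 (median 10.32) to 10.60 in TS. These groups did not overlap either, and the difference was 0.66 (SE 0.10, 95% interval 0.46 to 0.86), or 1.58-fold. A gene that binds retinoic acid and a gene that degrades it were thus both higher after stripping.

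Among the alcohol dehydrogenases, Adh6a, a less studied class of the family, ran from 9.10 (median 9.70) to 10.25 in NT and from 5.96 (median 6.84) to 7.33 in TS. Its lowest NT array lay above its highest TS array by more than either group's SD. The mean fell from 9.64 ± 0.46 to 6.71 ± 0.62, a difference of -2.93 (SE 0.35, 95% interval -3.69 to -2.18); since the TS mean lies under the array median and the table holds no measure of background, no fold is given. Its neighbour Adh1, the class I enzyme that oxidises ethanol and retinol, ran from 10.09 (median 10.19) to 10.59 in NT and from 9.93 (median 10.11) to 10.38 in TS. These groups overlapped, and the difference was -0.10 (SE 0.11, 95% interval -0.33 to 0.13, adjusted p = 0.732 in limma). Adh1 is abundant in liver, and its highest NT value was on the array NT 5. Without that array the difference was -0.03, and the NT mean was 10.19 ± 0.11 (n = 5).

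Adh7, the class IV enzyme of epithelia that prefers retinol, is measured by a pair of probe sets annotated to the same gene. In 1421058_at the values ran from 8.53 (median 8.61) to 8.95 in NT and from 8.13 (median 8.60) to 9.33 in TS. In 1450110_at they ran from 8.53 (median 8.58) to 8.80 in NT and from 8.39 (median 8.59) to 8.93 in TS. Both probe sets overlapped between the groups, with wider spread in TS. The differences were -0.03 (95% interval -0.36 to 0.30) and 0.00 (95% interval -0.17 to 0.17). The downstream neighbours of Adh6a gave little more: Adh6b and Adh4 were constant over all arrays, and Adh5, the glutathione-dependent formaldehyde dehydrogenase, differed by 0.00 (SE 0.07).

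Both aldehyde dehydrogenases had lower means in TS without passing. Aldh1a1, the retinaldehyde dehydrogenase that makes retinoic acid, ran from 9.21 (median 10.65) to 11.12 in NT and from 8.65 (median 9.65) to 10.66 in TS. The groups overlapped, the difference was -0.88 (SE 0.38, 95% interval -1.69 to -0.08), and it did not pass (adjusted p = 0.150 in limma). The single low NT array is NT 2, at 9.21. Without it the difference was -1.14 and passed (adjusted p = 0.0390). Aldh3a1, which oxidises medium-chain and aromatic aldehydes, ran from 9.97 (median 10.44) to 10.79 in NT and from 9.53 (median 9.93) to 10.37 in TS. It differed by -0.48 (SE 0.19, 95% interval -0.89 to -0.07) and did not pass (adjusted p = 0.112 in limma), except in a fit of varying probe sets alone (0.0396).

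Markers of several cell types differed between the same arrays. For comparison, 18.7% of all varying probe sets passed upward and 19.4% downward in TS against NT. Of 11 differentiated keratinocyte markers 8 rose in TS, and the array mean of the list went from a range of 10.61 to 11.22 in NT to 11.64 to 12.13 in TS. Of 11 adipocyte markers 10 fell, with ranges of 10.92 to 11.63 and 9.19 to 10.03. Of 14 skeletal muscle markers 12 fell, with ranges of 12.11 to 13.60 and 10.28 to 10.75. Of 15 hair follicle markers, of which 12 vary, 9 fell, with ranges of 9.16 to 9.96 and 7.47 to 9.20. The 10 varying sebaceous gland markers had 4 that fell, and their mean differed by -0.30 (exact permutation p = 0.0584, adjusted p = 0.0638). Of 12 macrophage markers 9 fell and 1 rose, with ranges of 10.95 to 11.61 and 10.41 to 10.87. Of 11 endothelium markers, of which 5 vary, 3 rose, with ranges of 7.903 to 8.231 and 8.235 to 8.455. Of 12 dermal fibroblast markers 3 fell and 2 rose, with ranges of 12.30 to 12.43 and 12.09 to 12.28. Of 8 basal keratinocyte markers 3 rose and 1 fell, with ranges of 10.48 to 10.98 and 10.74 to 11.12. The part of these shifts in the levels of Adh6a, Crabp2 and Cyp26b1 was not tested, and in whole skin fewer cells of a type cannot be told apart from less RNA per cell.

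**Figure D2:**
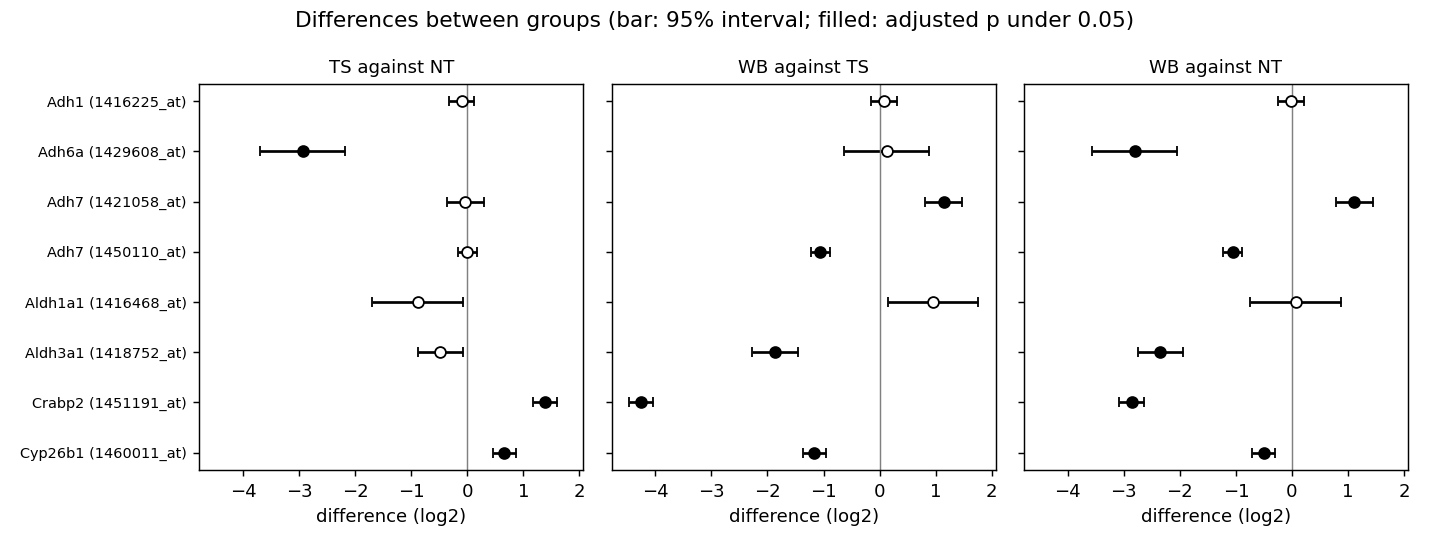
Difference between group means (x axis, log2) for each varying probe set (y axis) in the 3 comparisons; bars are 95% intervals of the limma fit and filled points passed at an adjusted p under 0.05. In TS against NT, Adh6a lies at -2.93, Crabp2 at 1.39 and Cyp26b1 at 0.66, and the other 5 points are open.

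Between WB and TS arrays Crabp2 differed most, by -4.25, and Adh6a and Adh1 hardly differed. In WB against TS, 1 of the 9 probe sets passed upward and 4 downward, where 23.6% of all tested probe sets and 88.8% of the varying ones were called, 47.1% of the latter upward and 41.7% downward. The groups did not overlap for 5 of the 8 varying probe sets, against 77.6% of all varying ones. The comparison shares the TS arrays with that of TS against NT, so values high in TS enter both with opposite signs.

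Crabp2 ran from 7.004 (median 7.14) to 7.44 on WB arrays, below every TS and NT array. The mean fell from 11.41 ± 0.24 in TS to 7.16 ± 0.16 in WB, a difference of -4.25 (SE 0.10). The WB mean lies just above the WB array medians, and with background unmeasured no fold is given. Cyp26b1 ran from 8.90 (median 9.20) to 9.46 in WB, also below every array of the other groups, and differed from TS by -1.17 (SE 0.10, 95% interval -1.37 to -0.96). Aldh3a1 ran from 7.54 (median 7.98) to 8.48 in WB and differed from TS by -1.87 (SE 0.19, 95% interval -2.27 to -1.46). It has only 1 probe set, and probe sets of the same gene often split in WB, as given below, so no fold is given. For these 3 genes WB arrays stood lowest of all groups.

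Marker lists also differed between WB and TS. The mean over the list was lower in WB for markers of skeletal muscle (difference -2.44), adipocytes (-1.28), macrophages (-1.24), basal keratinocytes (-0.99), endothelium (-0.96), dermal fibroblasts (-0.90) and sebaceous gland (-0.74), each without overlap (exact permutation p = 0.00216, adjusted p = 0.00289). WB arrays ranged from 7.29 to 8.71 for muscle, 8.05 to 8.56 for adipocyte, 9.24 to 9.52 for macrophage, 9.80 to 10.38 for basal keratinocyte, 7.29 to 7.56 for endothelium, 11.15 to 11.31 for fibroblast and 9.75 to 10.18 for sebaceous markers. Differentiated keratinocyte markers differed by -0.22 (exact permutation p = 0.0281, adjusted p = 0.0338) and hair follicle markers by 0.40 (exact permutation p = 0.203, adjusted p = 0.209). Of all varying probe sets, 41.7% passed downward and 47.1% upward in WB against TS, so nothing is read from the counts that follow. Of the 14 muscle markers 9 passed downward and none upward. Those passing downward and upward were 8 and 1 of 11 adipocyte, 8 and 2 of 12 macrophage and 5 and 2 of 8 basal keratinocyte markers. They were 4 and 1 of 5 varying endothelium, 8 and 2 of 12 fibroblast and 4 and 3 of 10 varying sebaceous markers. For the 11 differentiated keratinocyte markers they were 4 and 2, and for the 12 varying hair follicle markers 3 and 5. The part of these shifts in the WB levels was not tested.

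Adh6a ran from 5.87 (median 6.91) to 7.94 in WB and overlapped TS. Its difference from TS was 0.13 (SE 0.35, 95% interval -0.63 to 0.88, adjusted p = 0.937 in limma), an interval that leaves room for change in both directions. Both means, 6.84 and 6.71, lie under the array medians, so a difference there is limited by an unknown background. Adh1 ran from 9.96 (median 10.27) to 10.50 in WB and differed from TS by 0.08 (95% interval -0.15 to 0.31). Aldh1a1 ran from 9.56 (median 10.72) to 11.15 in WB and overlapped both other groups. Its difference from TS was 0.95 (SE 0.38, 95% interval 0.14 to 1.76), which missed the threshold narrowly (adjusted p = 0.0509 in limma, and 0.0134 to 0.121 over the alternatives).

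The Adh7 probe sets, which lay side by side in NT and TS, moved apart in WB. In 1421058_at the WB arrays ran from 9.63 (median 9.77) to 9.93, above every TS array, and the difference from TS was 1.14 (SE 0.15). In 1450110_at they ran from 7.44 (median 7.58) to 7.68, below every TS array, and the difference was -1.05 (SE 0.08). No direction can therefore be given for Adh7 in WB. Such splits were common there: of 2191 genes with several varying probe sets, 984 (44.9%) had calls in both directions in WB against TS, and 33 (1.51%) in TS against NT. The other genes described above have only 1 probe set each, so the same check cannot be made for Crabp2, Cyp26b1, Aldh3a1 or Adh6a.

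**Figure D3:**
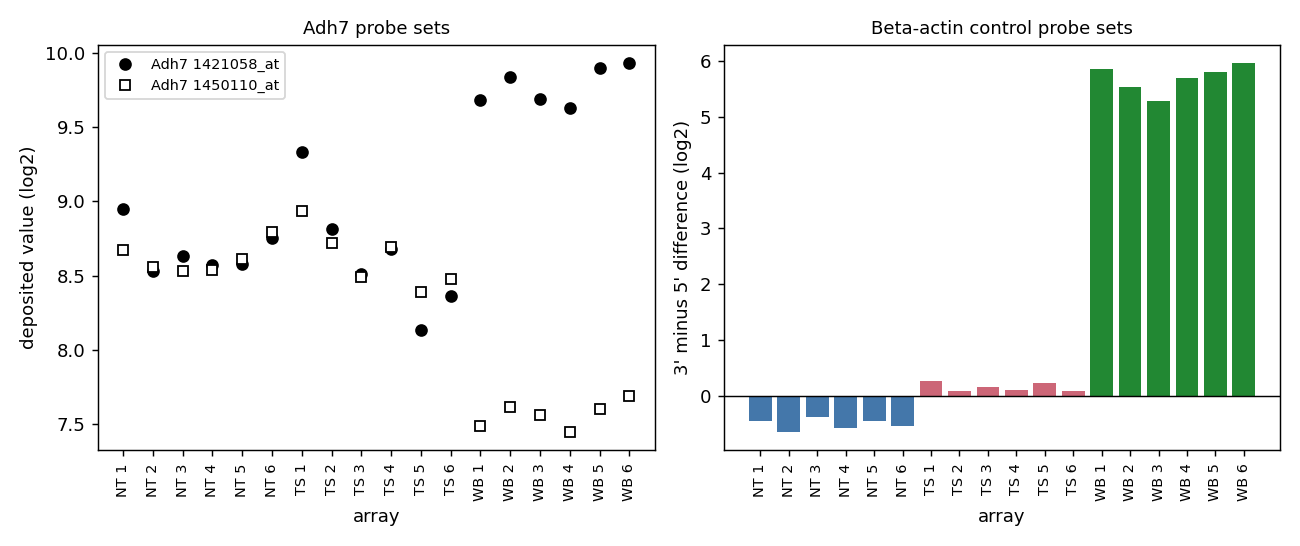
Left, deposited log2 value of the 2 Adh7 probe sets on each of the 18 arrays; right, the 3' minus 5' difference (log2) of the beta-actin control probe sets on the same arrays. On the 6 WB arrays 1421058_at lies at 9.63 or above and 1450110_at at 7.68 or below, and the actin difference is at least 5.27.

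Against unstripped skin, the WB group had a low level of Adh6a, with a difference of -2.80 (SE 0.35, 95% interval -3.56 to -2.05) and no overlap between the groups. Adh1 differed from NT by -0.02 (95% interval -0.25 to 0.21) and Aldh1a1 by 0.07 (95% interval -0.74 to 0.87). Crabp2, Aldh3a1 and Cyp26b1 differed by -2.86 (SE 0.10), -2.35 (SE 0.19) and -0.51 (SE 0.10). In WB against NT, 1 probe set passed upward and 5 downward of 9, where 23.7% of all tested and 89.3% of varying probe sets were called, 45.7% of the latter upward and 43.6% downward. The groups did not overlap for 6 of the 8, against 81.7% of all varying probe sets. The order of group levels was TS, NT, WB for Crabp2 and Cyp26b1, with no overlap between neighbours. For Aldh3a1 it was NT, TS, WB, with NT and TS overlapping. For Adh6a NT stood above WB and TS, which overlapped, and for Adh1 and Aldh1a1 all neighbours in the order overlapped.

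Beside these genes, 107 others of retinoid, alcohol and aldehyde metabolism were listed, of which 91 are on the array and 50 vary, counted by each gene's probe set of highest mean. For 5 of the others that probe set is constant while another varies, and 1 of these 5, Hbegf, passed in TS against NT. In TS against NT 5 of the 91 rose and 16 fell, where 7.27% of all genes rose and 7.93% fell. Only varying genes can pass, and these were 50 of the 91 but only 6842 of all 18193 genes. Among those 6842 genes 1323 rose and 1443 fell, so the shares over all genes are not a like measure. The median difference of the 50 was -0.09, against 0.00 over all varying genes.

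Binding and transport genes moved both ways: 4 of 16 rose and 4 fell. The fatty acid and retinoic acid binding protein Fabp5 rose by 0.68 (SE 0.08, adjusted p = 2.5e-05 in limma), from 13.22 ± 0.11 to 13.90 ± 0.13. The retinol-binding proteins Rbp7 (0.95, SE 0.12, adjusted p = 5.5e-05) and Rbp2 (0.67, SE 0.06, adjusted p = 6.7e-06) also rose. Lipoprotein lipase Lpl, which is also an adipocyte marker, fell by 0.94 (SE 0.11). The other 4 called were named after their values were seen: Crabp1, a relative of Crabp2, rose by 1.07 (SE 0.28), while the serum retinol carrier Rbp4 (-2.05, SE 0.39), the hormone-sensitive lipase Lipe (-1.40, SE 0.19) and the carboxylesterase Ces1d (-1.26, SE 0.28) fell. Rbp4, Lipe and Ces1d are made by fat cells too, and adipocyte markers fell beside them as given above. Without NT 5, the array set apart by liver markers, the fall of Rbp4 was smaller, at -1.65 (SE 0.24), and still passed. The call of Crabp1 was lost when only these groups' 12 arrays were fitted (adjusted p = 0.0548).

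Of 22 retinol and short-chain dehydrogenases 1 rose and 2 fell. Rdh12, which reduces retinaldehyde, rose by 0.59 (SE 0.12, adjusted p = 0.00310 in limma). Dhrs7c, known from muscle, fell by 1.64 (SE 0.26, adjusted p = 0.000439) to a TS mean of 6.92, under the array median. Dhrs7b fell by 0.35 (SE 0.10, adjusted p = 0.0247), but without NT 1, NT 2, NT 6, TS 5 or TS 6, and in a fit of the 12 arrays, it did not pass (0.0506 to 0.0617). Sdr16c5 and Sdr16c6, epidermal retinol dehydrogenases, differed by 0.10 and -0.02, and Dhrs3, a retinaldehyde reductase induced by retinoic acid, by -0.14, without passing.

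Among 18 other aldehyde dehydrogenases, of which 7 vary, 3 fell and none rose. These were Aldh2, the mitochondrial acetaldehyde enzyme (-1.14, SE 0.23, adjusted p = 0.00296 in limma), the lysine pathway enzyme Aldh7a1 (-0.52, SE 0.06, adjusted p = 5.4e-05) and the folate enzyme Aldh1l1 (-0.60, SE 0.16, adjusted p = 0.0192, but 0.0655 in a fit of the 12 arrays). Without NT 5 the fall of Aldh1l1 was smaller, at -0.44 (SE 0.11), and still passed. Of 7 alcohol dehydrogenases and aldo-keto reductases 3 fell and none rose: Adhfe1 (-0.90, SE 0.12), Akr1a1 (-0.35, SE 0.05) and Akr1b10 (-0.21, SE 0.05). The TS mean of Adhfe1, 6.927, lay under the TS array medians (6.934 to 6.942), so its difference is limited by an unknown background. The other retinoic acid maker Aldh1a2, the hydroxylase Cyp26a1 and the receptors Rara, Rarb, Rarg and Rxrb were constant over all arrays and give no information. Aldh1a3, which also makes retinoic acid, has a constant probe set of highest mean, and the difference in its other probe set, -0.22 (SE 0.09), missed the threshold (adjusted p = 0.126 in limma). Of the 11 receptors and cofactors, of which 4 vary, Rxrg fell by 0.08 (SE 0.03, adjusted p = 0.0392), a call lost without any of 9 single arrays (adjusted p up to 0.0915). Of 16 genes listed as retinoic acid targets, 7 vary by their probe set of highest mean, and 3 of these fell: the transglutaminase Tgm2 (-0.75, SE 0.13), Rarres1 (-0.47, SE 0.11) and the gluconeogenic enzyme Pck1 (-0.69, SE 0.17), which is also an adipocyte marker. The growth factor Hbegf, of the same list, rose by 0.38 (SE 0.08, adjusted p = 0.00457 in limma) in its varying probe set, which is not the one of highest mean. Rarres2 fell by 0.84 (SE 0.24, adjusted p = 0.0278) in a lesser probe set and differed by -0.59 without passing in that of highest mean (adjusted p = 0.0549); both genes were named after their values were seen.

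**Figure D4:**
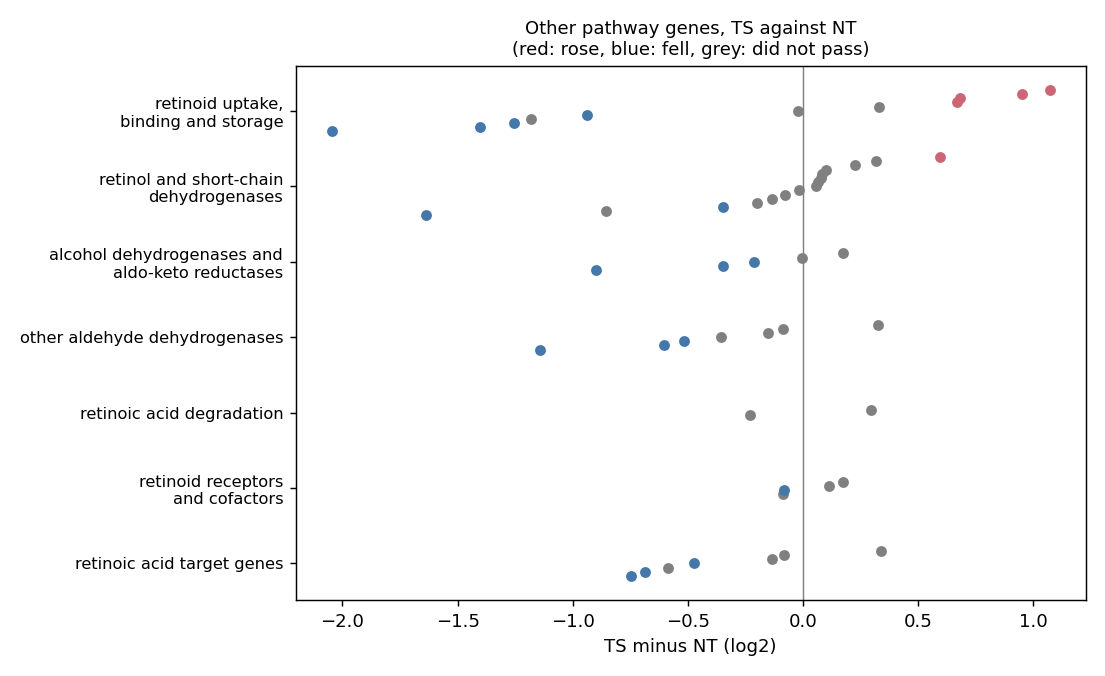
TS minus NT difference (x axis, log2) of the varying genes of the 7 other pathway lists (y axis, lists; points are offset vertically to be seen), each by its probe set of highest mean, so Hbegf is not drawn. Rises lie among the binding proteins and at Rdh12, and the called points of the other lists, none of them in retinoic acid degradation, lie below 0.

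In WB against TS 15 of the 91 genes passed upward and 25 downward, where 18.2% of all genes passed upward and 14.8% downward. In WB against NT these were 16 and 26, against 17.6% and 15.5% of all genes. Of the 91 genes 50 vary. Among all 6842 varying genes 3314 passed upward and 2684 downward in WB against TS, and 3208 and 2826 in WB against NT. Against TS, Lrat, which stores retinol as esters, was higher by 1.81 (SE 0.15), and Crabp1 (-3.55, SE 0.28), Dhrs3 (-1.67, SE 0.09), Sdr16c5 (-1.94, SE 0.12), Rarres2 (-3.05, SE 0.20) and the receptor Rxra (-0.96, SE 0.08) were lower in WB (adjusted p between 1.5e-10 and 3.6e-08 in limma). Also higher were Adh5 (0.96, SE 0.07), Cyp1a1 (1.14, SE 0.16), Krt4 (0.54, SE 0.05) and Nrip1 (0.50, SE 0.06). So were Tgm2 (0.77, SE 0.13) and Akr1a1 (0.50, SE 0.05) by their probe sets of highest mean, but each also has a probe set called downward. These genes are only a part of the 15 passing upward and 25 passing downward. The WB mean of Crabp1, 5.92, lies under the array medians, so its difference is limited by an unknown background. Aldh2 was lower by 2.96 in 1 probe set and higher by 2.81 and 2.03 in the others. Of 18 pathway genes with several varying probe sets, 8 (44.4%) had calls in both directions in WB against TS, and none in TS against NT.

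Some of the probe sets varied widely among arrays of one group. The SD of Adh6a was 0.46, 0.62 and 0.74 in NT, TS and WB, and that of Aldh1a1 was 0.67, 0.74 and 0.54, where the median SD of all varying probe sets was 0.10, 0.13 and 0.13. In each group these SDs exceeded those of at least 95.8% of varying probe sets. Cyp26b1 and Crabp2 were nearer the middle in NT, at 56.5% and 59.8%.

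Within groups, 28 pairs of probe sets were correlated in each of the 3 groups, 84 relations in all, and none passed after adjustment. The Adh7 probe sets followed each other in TS (Pearson r = 0.979, exact permutation p = 0.00139, adjusted 0.0778; Spearman rho = 1, exact p = 0.00278, adjusted 0.117; r = 0.940 without the 2 arrays farthest from the median; n = 6). In WB, where they stood apart in level, r was 0.913 (exact p = 0.00972, adjusted 0.136), rho was 0.943 (exact p = 0.0167, adjusted 0.175) and r without the 2 farthest arrays was 0.886. In NT r was 0.631 (exact p = 0.179, adjusted 0.386), rho was 0.543 (exact p = 0.297, adjusted 0.499), and r without the 2 farthest arrays was -0.27. Adh6a and Aldh1a1 had r of 0.749, 0.802 and 0.884 in NT, TS and WB (exact p = 0.0417, 0.0708 and 0.0139, adjusted 0.220, 0.259 and 0.160), and rho of 0.829, 0.600 and 0.943 (exact p = 0.0583, 0.242 and 0.0167, adjusted 0.245, 0.451 and 0.175). Without the 2 farthest arrays r was 0.513, 0.212 and 0.818, smaller in each group and most so in TS. Other pairs had a larger r in a single group. Adh1 and Adh6a had 0.980 in WB (exact permutation p = 0.00278, adjusted 0.0778) but -0.0005 in NT. Aldh1a1 and Crabp2 had -0.956 in NT (exact p = 0.00972, adjusted 0.136) but -0.191 in WB.

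The patterns most like those of each gene were looked for over the 12 NT and TS arrays, as a description. The search covered 10177 varying probe sets with 1 symbol and a mean over these arrays above the median of the table. Dimmer probe sets were not searched, the genes described here were passed over, and only the highest positive r was sought. Adh6a was followed most closely by Sema3d (r = 0.986) and Pcgf5 (0.984). Crabp2 was followed by 1110038B12Rik (0.986) and the stefin Stfa2l1 (0.980), and Cyp26b1 by Etl4 (0.982) and the epidermal factor Grhl2 (0.982). For these 3 genes the points fall into the 2 groups, so r mostly restates the difference between them. Aldh3a1 was followed by Fam126b (0.939) and Ubr3 (0.909), Adh7 by Secisbp2l (0.926) and Bpnt2 (0.912), Aldh1a1 by Cldn10 (0.918) and Zfp597 (0.912), and Adh1 by Ldah (0.903) and Gcdh (0.864).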

How the data were processed

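Total RNA of dorsal skin was isolated with Isogen and an RNeasy kit, and 100 ng were made into biotinylated cRNA for Affymetrix arrays, as the labels' protocols state. The authors deposited 1 value per probe set and array; their summarising and normalizing method: not given in the sources used here. Deposited values span 2.93 to 19.04 and were read as log2; no source states the base, on which every fold depends. Of 45101 probe sets 64 controls were left out; 33091 (73.5%) of the rest ranged by less than 0.01. Symbols come from the platform annotation; 932 tested probe sets with several symbols and 9160 with none were not named. A pathway gene was represented by its probe set of highest mean.

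Groups were compared with limma 3.58.1 in R 4.3.3 (lmFit, eBayes, two-sided, 18 arrays, no covariate) with Benjamini-Hochberg adjustment over 45037 probe sets. On simulated data for TS against NT over 45037 probe sets, 67 of 100 changes of 0.5 and 92 of 100 changes of 1 log2 were recovered. Array measures were compared by exact permutation, and within-group relations by exact permutation of 6 arrays. Members, lists, tests and alternatives were chosen with earlier results of these data known. Named pathway genes are the 4 of smallest p among those called in each list, of which a part is printed for WB, and those said to be chosen later. Promoters are from RefSeq (GRCm38.p6). The precision is limited by 6 arrays per group.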

Additional observations from a re-analysis of the deposited data

Results flagged for a closer look

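Of 24 groups of 6 values examined, 1 held an array far from the others, about what chance gives (1 in 20 groups): Aldh1a1 on NT 2, at 9.212, while the other 5 NT arrays lay between 10.45 and 11.12.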

How the results depend on the processing

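The differences of Adh6a, Crabp2 and Cyp26b1 in TS against NT kept their direction and stayed past the threshold under all 26 alternatives (quantile normalization, median centring, filters on dim and on constant probe sets, array weights, a variance trend, a fit of 12 arrays, the replicate block, and leaving out each array), at -3.06 to -2.78, 1.32 to 1.44 and 0.61 to 0.70. The count of probe sets lower in TS went from 1 to 2 among varying probe sets only (Aldh3a1). The count higher in WB than in TS went from 1 to 2 after quantile normalization, after median centring, among varying probe sets only and with array weights, in each case through Aldh1a1 (differences of 1.06, 0.99, 0.95 and 0.91). Leaving out 1 array gave 1 to 2 lower in TS (2 without NT 2, Aldh1a1) and 1 to 2 higher in WB against TS (2 without NT 2, TS 4, TS 6 or WB 3, Aldh1a1). The sign of small differences that did not pass turned: Adh7 1450110_at in TS against NT gave 0.0101 after quantile normalization and 0.00177 after median centring, and Adh1 in WB against NT gave 0.113 and 0.0157. Leaving out single arrays moved Adh7 1450110_at in TS against NT between -0.064 and 0.044, Adh7 1421058_at there between -0.170 and 0.070, Adh1 in WB against NT between -0.077 and 0.045, Aldh1a1 there between -0.190 and 0.268, and Adh6a in WB against TS between -0.093 and 0.320. The cause was not tested. With the replicate block, whose numbers do not pair the arrays (deviations of same-numbered arrays correlated at -0.13 to 0.127 between TS and NT, -0.268 to 0.048 between WB and TS and -0.051 to 0.138 between WB and NT), 2 rose and 1 fell of the probe sets in TS against NT, and 5 and 15 of the other pathway genes; the one call lost with it was that of Rxrg (adjusted p = 0.0776). Rxrg was also lost after quantile normalization (0.0600) and median centring (0.0685). The table holds no background measure, so low values such as those of Adh6a in TS limit how large its fall can be read.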
